A study of Mus musculus with 8 samples.

Results

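Reactive oxygen is taken apart in heart muscle by a small set of enzymes, and 42 genes that encode them were followed here in neonatal cardiomyocytes (NCMs) of mice exposed in utero to diesel exhaust. They were chosen by name: the glutathione peroxidases, peroxiredoxins, thioredoxins, glutaredoxins, glutathione S-transferases and superoxide dismutases, with catalase and the enzymes that make and reduce glutathione. All 42 were found among the 27179 genes of the count table by their Entrez gene number, and 40 of them passed the filter on low counts, which kept 14966 genes in all. In the cells of exposed offspring catalase (Cat) was 44.4% lower, while Gpx7 and Prdx4, which act on peroxide in the endoplasmic reticulum, were 1.45-fold and 1.5-fold higher. Cat passed the test under all 20 alternative settings, whereas Gpx7 and Prdx4 did not under 9 and 6 of them. The other 37 tested genes did not pass edgeR's quasi-likelihood test, though 3 of them, Gss, Gsr and Sod3, passed with DESeq2.

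C57Bl/6 J dams breathed either filtered air (FA) or diesel exhaust (DE) between embryonic days E0.5 and E17.5, and hearts of their pups were taken at birth (PND0). Each of the 8 libraries came from the NCMs of 1 male heart, trimmed of atria and vessels, dissociated and plated briefly to take away fibroblasts. There were 4 FA libraries (replicates 2, 3, 4 and 6) and 4 DE libraries (replicates 1, 3, 5 and 7), with no other treatment or genotype, and the methods name fewer libraries per group than the 4 in the table. Litters are not given, so libraries of a group may come from 1 dam, and the p-values measure the spread between these libraries. A number opens each sample name, 11 for the FA libraries and for DE replicates 1 and 7, and 12 for DE replicates 3 and 5, and what this prefix means is not stated.

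Superoxide, which leaks from the respiratory chain and is made by oxidases, is turned into hydrogen peroxide by the superoxide dismutases. Peroxide is then broken down by catalase in peroxisomes, and by glutathione peroxidases and peroxiredoxins in the cytosol, mitochondria and endoplasmic reticulum, which draw on glutathione and thioredoxin. Glutathione reductase and thioredoxin reductase restore these carriers with NADPH, and the glutathione S-transferases join glutathione to lipid peroxides and foreign compounds. Many of these genes are known targets of the transcription factor Nrf2, which binds the antioxidant response element, and Cat is also known as a target of the PPAR family.

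Library totals ran from 17943024 to 39839737 counts, and no 2 libraries of a group were copies, since even the most alike pair (FA replicates 2 and 4) had a chi-square per gene of 5.37. The heart muscle markers were high in every library, at a sum of 66690 to 69280 CPM (counts scaled to the size of the library with TMM factors) over 10 genes in FA and 56740 to 65070 CPM in DE. These sums did not overlap, 9 of the 10 markers were lower in DE, Myh6 was called lower (log2 fold change -0.67, adjusted p = 0.00314) and Myh7 was called higher (0.53, adjusted p = 0.0157). Without Myh6 the sums of the other 9 overlapped, at 44577 to 45451 CPM in FA and 42652 to 49637 CPM in DE. The sum of 10 fibroblast markers was 2100 to 3579 CPM in FA and 3793 to 6366 CPM in DE, without overlap, with all 10 markers higher in DE and 2 of them, Col1a1 and Dcn, called. The sum of 10 smooth muscle and pericyte markers lay lower in DE, where it was 1157 to 1572 CPM, than in FA, where it was 1594 to 2166 CPM. Most of that sum was Acta2 (927 to 1551 CPM in FA, 633 to 921 CPM in DE), whereas 6 of the 10 were higher in DE (median log2 fold change 0.14), and the lowest adjusted p of the list was 0.0562, for Acta2. The sums of the endothelial, erythroid, leukocyte, hepatocyte, brown adipocyte, mesothelial and atrial lists overlapped between the groups, and that of the erythroid list was 790 to 1904 CPM in FA, against 1235 to 2046 CPM in DE. In these lists 2 markers were called, the erythroid Slc4a1 higher (0.95, adjusted p = 0.0422) and Cidea of the brown adipocyte list lower (-0.92, adjusted p = 0.00373), and 6 of the 7 tested erythroid markers were higher in DE. In these bulk libraries a change in the share of a cell type and a change in RNA per cell cannot be told apart, and the part of other cell types in the values of the redox genes was not tested.

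The redox genes are mostly short, and the libraries of a group differed along transcript length. The median exon length was 1467 bp for the 40 tested genes and 3362 bp over the tested genes with a known length, and 34 of the 40 lay below the latter. All 40 were higher in FA replicate 3 than in FA replicate 2, as were 7485 of all 14966 tested genes, and 35 of the 40 (87.5%) were higher in both FA replicates 3 and 6 than in both FA replicates 2 and 4, which held for 29.2% of all tested genes. In median, the 40 genes lay 0.19 below the group mean in FA replicate 2 and 0.20 above it in FA replicate 3 on the scale of log2(CPM + 0.5). The 3465 genes with the shortest exons (62 to 2108 bp) moved the same way, from -0.13 to 0.15, and the 3462 with the longest moved the other way, from 0.15 to -0.16. Among the 40 redox genes the pattern was smaller in DE. There 18 of the 40 (45.0%) were higher in both DE replicates 3 and 5 than in both DE replicates 1 and 7. This held for 29.9% of all tested genes. The trend with exon length itself was of similar size in DE and FA. The genes with the shortest exons moved from -0.097 in DE replicate 1 to 0.13 in DE replicate 5. Those with the longest moved from 0.14 to -0.16. The redox genes thus moved together across libraries and are not independent of each other. Values with offsets, which take out the trend of a library with exon length and GC content, are given beside many of the results, including each change of sign.

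**Figure D1:**
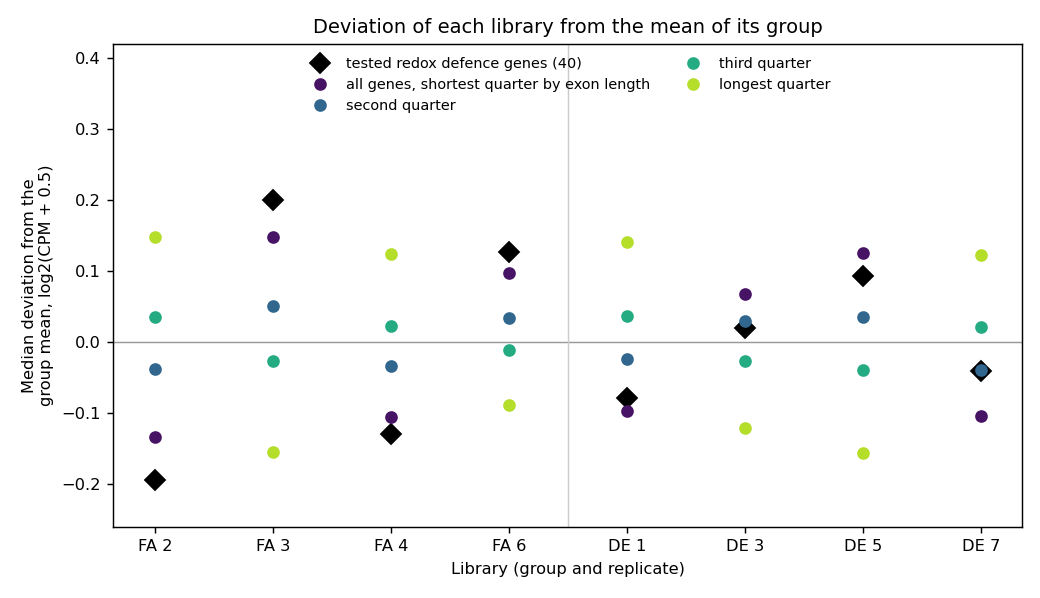
Median deviation from the group mean, in log2(CPM + 0.5), of the 40 tested redox defence genes (black diamonds) and of all tested genes of known length in 4 sets by exon length (circles), for each library on the horizontal axis. The redox genes lie at -0.19 in FA replicate 2 and 0.20 in FA replicate 3, on the same side as the genes with the shortest exons in each of the 8 libraries.

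The groups were compared over all 14966 genes with the quasi-likelihood test of edgeR, and genes were called where the adjusted p was at most 0.05 and the difference at least 25%. Of the 40 redox genes 3 were called (7.5%), where 5.8% of all tested genes were. There were 2 higher in DE, with a background of 3.58%, and 1 lower, with a background of 2.22%. At an unadjusted p under 0.05 there were 11 of 40 (27.5%) against 25.6% of all tested genes. FA and DE libraries were without overlap in CPM for 5 of 40 (12.5%), against 14.7%. All of these shares were near those of all tested genes. There were 28 higher in DE and 12 lower, and their log2 fold changes had a median of 0.13, where the median of all tested genes was 0.0037. With the offsets for length and GC content that median was 0.048, with 24 of 40 higher, and scaling by library totals alone gave 0.20, with 34 higher, where the median of all genes itself moved to 0.076. The log2 fold changes of the 37 uncalled genes ran from -0.39 to 0.81, with standard errors of 0.092 to 0.26 and adjusted p-values of 0.0752 to 0.986.

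**Figure D2:**
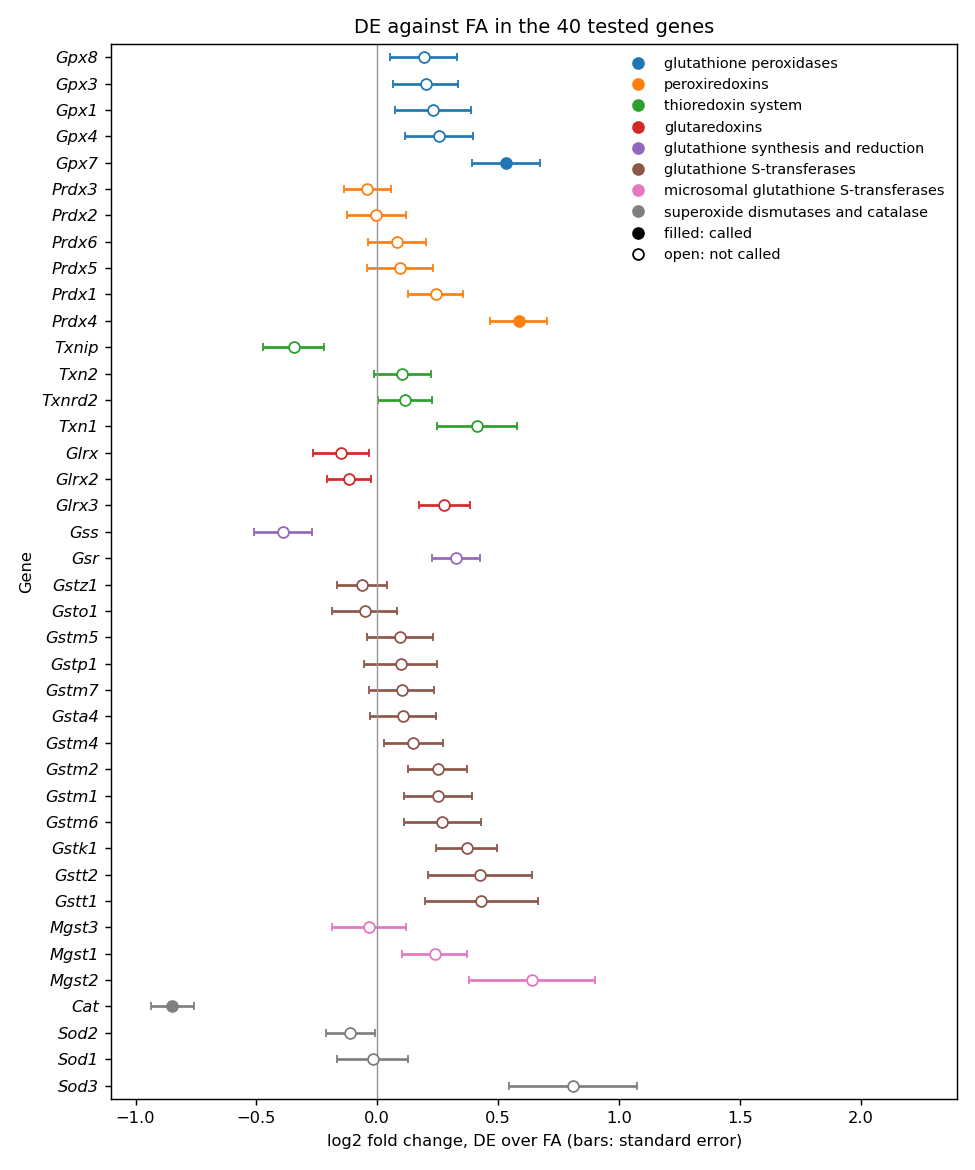
Log2 fold change of DE over FA (points) with its standard error (bars) for the 40 tested genes, by family in colour, filled where called. Cat stands at -0.85, apart from all others on the left, and Gpx7 and Prdx4 are the 2 filled points on the right, while Sod3, at 0.81, and Mgst2, at 0.64, are open with wide bars.

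The 3 called genes lie on different chromosomes of GRCm38.p6, the assembly also named mm10, and all are read from the minus strand. Cat (Entrez gene 12359) spans chromosome 2 from 103453904 to 103485153, Gpx7 (67305) chromosome 4 from 108400217 to 108406713 and Prdx4 (53381) chromosome X from 155323918 to 155342272. The 100 bases before the RefSeq start of each are shown because these genes carry the result, at chr2:103485154-103485253 for Cat, chr4:108406714-108406813 for Gpx7 and chrX:155338461-155338560 for Prdx4, whose start in RefSeq's promoter table lies inside the annotated gene. Capitals mark the CCAAT box and the GC box GGGCGG on either strand, a pair of common promoter boxes that were looked for after the values were seen.
Cat: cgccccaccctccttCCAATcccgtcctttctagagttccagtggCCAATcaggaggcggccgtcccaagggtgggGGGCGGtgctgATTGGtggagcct
Gpx7: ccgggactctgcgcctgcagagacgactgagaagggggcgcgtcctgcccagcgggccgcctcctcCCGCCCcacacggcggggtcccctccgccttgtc
Prdx4: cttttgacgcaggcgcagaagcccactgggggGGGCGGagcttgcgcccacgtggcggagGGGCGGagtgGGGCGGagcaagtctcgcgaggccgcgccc
The stretch of Cat held 3 CCAAT boxes and 1 GC box, that of Prdx4 3 GC boxes, and that of Gpx7 1 GC box. Over the 27025 RefSeq windows of the mouse, 19.6% held a CCAAT box and 25.2% a GC box in the same 100 bases. A match is a description of the letters, and no promoter was measured in these data.

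Cat encodes catalase, the peroxisomal enzyme that splits hydrogen peroxide into water and oxygen. It was counted at 137.2, 141.5, 131.3 and 152.4 CPM in FA replicates 2, 3, 4 and 6, and at 74.0, 76.4, 81.4 and 80.8 CPM in DE replicates 1, 3, 5 and 7. The highest DE library lay far below the lowest FA library, and the spread within each group was small beside the gap. The mean fell from 140.6 ± 8.92 CPM to 78.2 ± 3.52 CPM (SD, n = 4), a log2 fold change of -0.85 (SE 0.089, adjusted p = 0.000594). Cat was longer than most of these genes, with 2613 bp of exon, and its difference was as large with offsets for length and GC content (-0.88) and among the 6 libraries with prefix 11 alone (-0.87, adjusted p = 0.00731). It was called under each of the 20 alternatives.

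The superoxide dismutases, which make the peroxide that catalase removes, were not called by the quasi-likelihood test. Sod1, the copper and zinc enzyme of the cytosol, had the highest level per length of the whole set, at 266 ± 48.7 CPM per kilobase of exon in FA and 263 ± 38.8 in DE. In CPM it was 140.7, 204.9, 148.2 and 189.3 in FA and 138.3, 185.2, 192.3 and 158.2 in DE, with the libraries of both groups interleaved (log2 fold change -0.019, SE 0.15, adjusted p = 0.952), and with the offsets it was at -0.18. Sod2, the manganese enzyme of the mitochondrial matrix, stood at 375 ± 16.4 CPM in FA and at 347 ± 39.5 CPM in DE (log2 fold change -0.11, SE 0.10, adjusted p = 0.514), and with the offsets its sign turned, to 0.030.

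Sod3 encodes the secreted superoxide dismutase that binds to the extracellular matrix, and it had the largest positive log2 fold change of the set. It was low, at 1.39, 1.94, 1.47 and 2.90 CPM in FA and at 4.15, 3.93, 2.69 and 2.51 CPM in DE. FA replicate 6 lay above DE replicates 5 and 7, so the groups overlapped. The log2 fold change was 0.81 (SE 0.26) with an adjusted p of 0.0918, and without FA replicate 6 it was 1.07 (adjusted p = 0.0397, called). DESeq2 (adjusted p = 0.0386) and the likelihood ratio test (adjusted p = 0.0416) also called Sod3. The other 17 of the 20 alternatives did not, and within prefix 11 the log2 fold change was 0.83 (adjusted p = 0.2085). The highest Sod3 libraries, DE replicates 1 and 3, were also the highest in fibroblast markers, with sums of 6366 and 4867 CPM, and the part of fibroblast RNA in the Sod3 value was not tested.

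**Figure D3:**
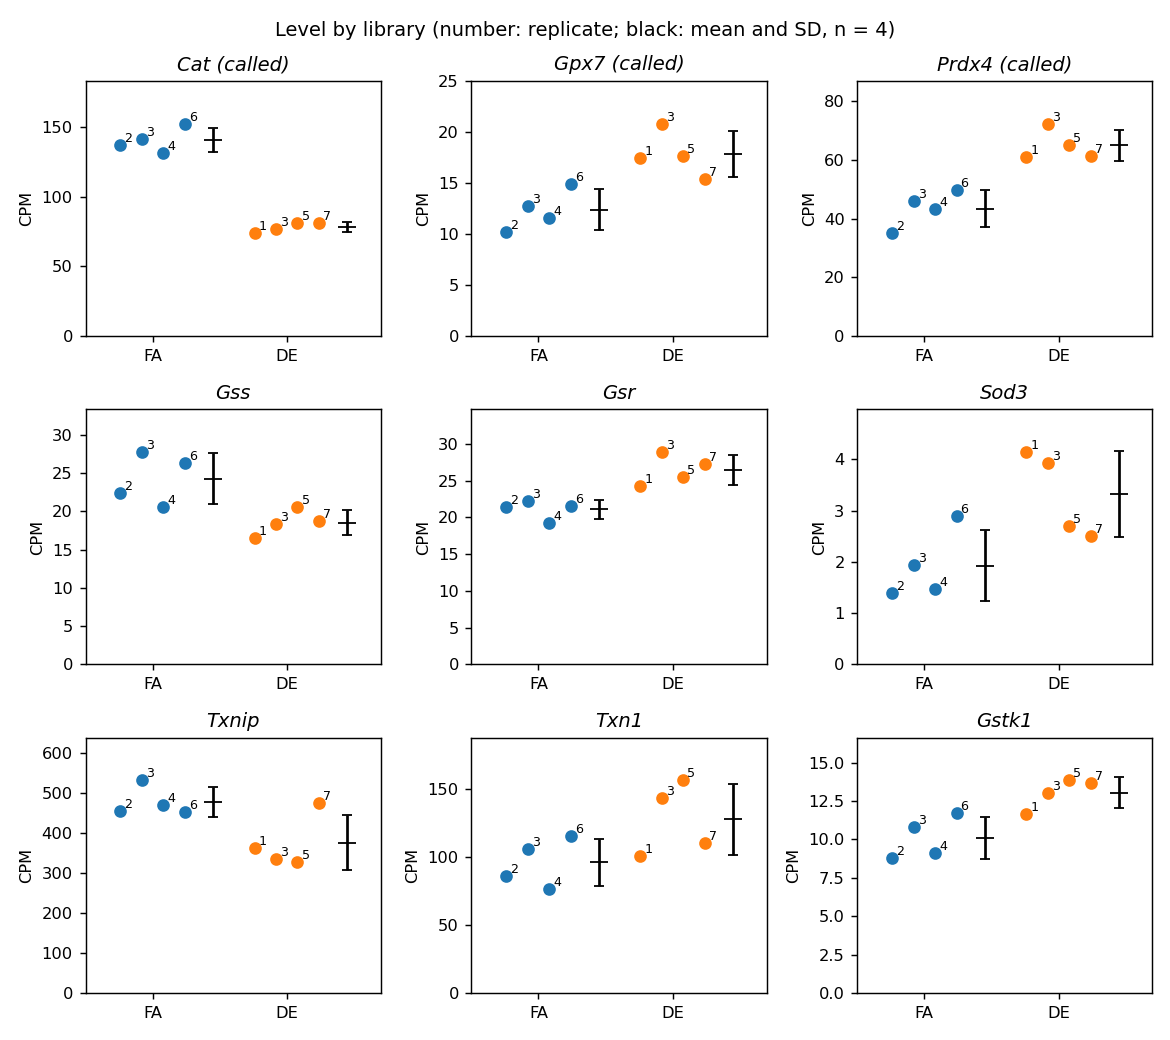
CPM in each library for 9 of the genes, with the replicate number beside each point, FA in blue and DE in orange, and the mean with its SD (n = 4) in black; each vertical axis starts at 0. The groups are apart for Cat, Gpx7, Prdx4, Gss and Gsr, and overlap for Sod3, Txnip, Txn1 and Gstk1.

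All 5 glutathione peroxidases were higher in DE, with log2 fold changes of 0.19 to 0.53 and a median of 0.23 (0.054 with the offsets), and only Gpx7 was called. Gpx7 encodes a peroxidase of the endoplasmic reticulum that passes oxidation on to protein disulphide isomerase. It stood at 10.2, 12.8, 11.6 and 14.9 CPM in FA and at 17.52, 20.9, 17.7 and 15.5 CPM in DE. The closest libraries, FA replicate 6 and DE replicate 7, were 14.9 and 15.5 CPM, so the groups were apart by little. The mean rose from 12.4 ± 1.99 to 17.9 ± 2.23 CPM (log2 fold change 0.53, SE 0.14, adjusted p = 0.0476). The call was lost under 9 of the 20 alternatives, among them those without FA replicate 2, 3 or 4 or DE replicate 1, 3 or 5 (0.45 to 0.55, adjusted p = 0.0564 to 0.150). Within prefix 11 the log2 fold change was 0.41 (adjusted p = 0.227).

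Gpx4 encodes the enzyme that reduces lipid peroxides within membranes, and it led the peroxidases with 129 ± 24.2 CPM per kilobase in FA and 154 ± 19.3 in DE. Its CPM were 133.2, 201.1, 146.2 and 178.2 in FA and 178.1, 221.3, 213.7 and 172.9 in DE, with FA replicates 3 and 6 among the DE values (log2 fold change 0.26, SE 0.14, adjusted p = 0.279). Gpx1, the general peroxidase of the cytosol and mitochondria, and Gpx3, the secreted plasma form, had log2 fold changes of 0.23 and 0.20. Gpx8, the second member of the endoplasmic reticulum, had 0.19, with 25.9 ± 5.32 CPM in FA and 29.6 ± 1.24 CPM in DE. With the offsets Gpx1, Gpx3 and Gpx4 were at 0.036, 0.054 and 0.046, whereas Gpx7 was at 0.37 (adjusted p = 0.0380).

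Of the 6 peroxiredoxins, Prdx4 was called, 3 others were higher in DE and 2 lower. The family's median log2 fold change was 0.087, and with the offsets it was -0.016, with 3 of 6 higher and Prdx5 at -0.092. Prdx4 encodes the peroxiredoxin of the endoplasmic reticulum, where it reduces peroxide formed during disulphide bonding. It stood at 34.9, 45.9, 43.1 and 49.6 CPM in FA and at 61.0, 72.4, 65.2 and 61.5 CPM in DE. The lowest DE library was above the highest FA library, and FA replicate 2 was the lowest of all. The mean rose from 43.4 ± 6.24 to 65.0 ± 5.28 CPM (log2 fold change 0.58, SE 0.12, adjusted p = 0.0198). The call was lost under 6 of the 20 alternatives, among them those without FA replicate 2 (0.49, adjusted p = 0.0583), FA replicate 4 (0.57, adjusted p = 0.0743) or DE replicate 3 (0.53, adjusted p = 0.0692). Within prefix 11 it was 0.49 (adjusted p = 0.110). With the offsets it was 0.46 (adjusted p = 0.00607). Fibroblast markers were higher in DE beside both Gpx7 and Prdx4, and their part in either difference was not tested.

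Prdx2, an abundant cytosolic peroxiredoxin, led its family per length with 172 ± 27.6 CPM per kilobase in FA and 171 ± 12.6 in DE. Its CPM were 268.8, 373.0, 281.1 and 350.0 in FA and 288.5, 325.9, 343.6 and 310.6 in DE, with all DE libraries inside the FA range (log2 fold change -0.0047, SE 0.12, adjusted p = 0.985). Prdx3, the mitochondrial form, averaged 174 ± 14.9 CPM in FA against 169 ± 10.8 CPM in DE. Prdx1, which is a known Nrf2 target, lay at 303 ± 37.6 CPM in FA and at 358 ± 34.8 CPM in DE (log2 fold change 0.24, SE 0.11, adjusted p = 0.212). Prdx5 and Prdx6 had log2 fold changes of 0.094 and 0.081. Prdx5 shares 28.3% of its exon bases with Trmt112, and Prdx2 8.31% with Rnaseh2a, on the opposite strand, and since the strand setting of the counting is not given, reads there may belong to either gene. The same holds for Gstz1 with Pomt2 (21.6%) and Gstm5 with 4933431E20Rik (17.9%).

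No gene of the thioredoxin system was called among the 4 tested, by any of the 4 tools (the quasi-likelihood test, DESeq2, the likelihood ratio test and limma-voom), and 2 were at an unadjusted p under 0.05, Txnip and Txn1. Txnip encodes the protein that binds and blocks thioredoxin and that responds to glucose, and it was the most highly counted of the 4 also per length, at 169 ± 13.0 CPM per kilobase in FA and 133 ± 24.2 in DE. Its CPM were 453, 530, 470 and 453 in FA and 362, 336, 327 and 475 in DE. Of the DE libraries 3 lay below all FA libraries, and DE replicate 7 lay among them (log2 fold change -0.35, SE 0.13, adjusted p = 0.123). Without DE replicate 7 the log2 fold change was -0.49 and Txnip was called (adjusted p = 0.0345), which was so in only 1 of the 20 alternatives. Within prefix 11 the log2 fold change was -0.19. Txnip shares 21.4% of its exon bases with Gm15441 on the other strand.

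Txn1, the cytosolic thioredoxin, showed the other direction, with 85.9, 105, 76.6 and 115 CPM in FA and 101, 143, 156 and 110 CPM in DE. The DE libraries with prefix 12, replicates 3 and 5, were the 2 highest, and DE replicates 1 and 7 lay among the FA values. The log2 fold change was 0.41 (SE 0.17, adjusted p = 0.149), 0.13 within prefix 11 and 0.30 with the offsets. Txn2 and Txnrd2, the thioredoxin and the reductase of mitochondria, had log2 fold changes of 0.10 and 0.11.

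Of the glutaredoxins, which reduce mixed disulphides of protein and glutathione, 3 were tested and none was called by any of the 4 tools, with 1 at an unadjusted p under 0.05. Glrx3, a carrier of iron and sulphur clusters, was at 74.4, 97.4, 82.2 and 85.2 CPM in FA and at 91.1, 107, 109 and 104 CPM in DE, with FA replicate 3 above DE replicate 1 (log2 fold change 0.28, SE 0.11, adjusted p = 0.137). Glrx, the cytosolic enzyme, was highest of the family per length, with 49.6 ± 7.68 CPM per kilobase in FA and 44.7 ± 2.57 in DE. Its CPM were 57.9, 80.1, 60.4 and 72.9 in FA and 63.7, 60.7, 63.8 and 56.3 in DE, with DE replicate 7 below all FA libraries and the others at the lower end of their range (log2 fold change -0.15, SE 0.12, adjusted p = 0.444). The mitochondrial Glrx2 had a log2 fold change of -0.12 (SE 0.092). Glrx5, which serves iron and sulphur cluster assembly in mitochondria, had 5 to 11 counts per library (0.134 to 0.498 CPM) and was not tested.

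The enzyme that makes glutathione and the one that reduces it had log2 fold changes of opposite sign, and neither was called by the quasi-likelihood test, while DESeq2 called both. Gss, glutathione synthetase, stood at 22.4, 27.8, 20.6 and 26.4 CPM in FA and at 16.5, 18.3, 20.5 and 18.7 CPM in DE. The groups did not overlap, but FA replicate 4 and DE replicate 5 were nearly equal (log2 fold change -0.39, SE 0.12, adjusted p = 0.0798). Gsr, glutathione reductase, stood at 21.4, 22.3, 19.2 and 21.5 CPM in FA and at 24.2, 28.9, 25.5 and 27.2 CPM in DE. Its groups did not overlap either (log2 fold change 0.33, SE 0.099, adjusted p = 0.0752). Per length Gss was the higher of the pair in FA, at 12.4 ± 1.698 CPM per kilobase against 7.89 ± 0.497, and in DE the values were 9.44 ± 0.837 and 9.91 ± 0.761.
Gss was called by DESeq2 (adjusted p = 0.0352), by edgeR's likelihood ratio test (adjusted p = 0.0479) and with the offsets (-0.51, adjusted p = 0.00636), and Gsr by DESeq2 (adjusted p = 0.0272) and with library totals alone (0.40, adjusted p = 0.0392). Within prefix 11 the log2 fold changes were -0.47 for Gss and 0.28 for Gsr, with adjusted p-values of 0.145 and 0.2802. Gss shares 5.96% of its exon bases with Gssos2 on the other strand.

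Of the 13 glutathione S-transferases tested, 11 were higher in DE and 2 lower (median log2 fold change 0.15), and 0 were called by any of the 4 tools. With the offsets 7 of the 13 were higher, with a median of 0.038. At an unadjusted p under 0.05 there was 1, Gstk1, the kappa form found in mitochondria and peroxisomes. It stood at 8.77, 10.8, 9.14 and 11.7 CPM in FA and at 11.6, 13.0, 13.8 and 13.7 CPM in DE, with FA replicate 6 just above DE replicate 1 (log2 fold change 0.37, SE 0.13, adjusted p = 0.102, and 0.24 with the offsets). Gstp1, the pi form, was highest per length, at 86.6 ± 15.4 CPM per kilobase in FA and 92.5 ± 14.9 in DE. Its CPM were 56.2, 78.8, 65.5 and 84.0 in FA and 61.9, 83.5, 88.5 and 70.0 in DE, interleaved (log2 fold change 0.097, SE 0.15, adjusted p = 0.715, and -0.095 with the offsets).
The 6 Gstm genes of the set lie within 1 cluster on chromosome 3 between 107895854 and 108045179, which also holds Gstm3, and as close copies they may share reads, so each value is uncertain. Their log2 fold changes were 0.093 to 0.27, and with the offsets -0.027 to 0.14, with Gstm5 and Gstm7 below 0. Gstm1 was at 63.8 ± 13.3 CPM in FA and at 75.9 ± 5.89 CPM in DE. Gstt1 and Gstt2, both near 2 CPM, had the largest values of the family, 0.43 (SE 0.24) and 0.42 (SE 0.21), and Gsta4, which joins glutathione to the lipid peroxidation product hydroxynonenal, had 0.11 (-0.0052 with the offsets). The 2 lower ones were Gsto1 and Gstz1, at -0.052 and -0.063. Gsta3 had 2 to 15 counts per library (0.107 to 0.401 CPM) and was not tested.

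Of the microsomal glutathione S-transferases, none of 3 was called by any of the 4 tools, with 1 at an unadjusted p under 0.05. Mgst2, which also makes leukotriene C, was at 0.455, 0.698, 1.02 and 0.639 CPM in FA and at 1.12, 0.947, 1.05 and 1.12 CPM in DE, from 13 to 42 counts per library. Only FA replicate 4 reached the DE values (log2 fold change 0.64, SE 0.26, adjusted p = 0.152). Mgst3, the most abundant of the 3 with 94.0 ± 19.8 CPM per kilobase in FA and 91.7 ± 12.5 in DE, was at 83.2, 131.9, 90.01 and 107.3 CPM in FA and at 103.0, 105.9, 112.5 and 81.0 CPM in DE, interleaved (log2 fold change -0.034, SE 0.15, adjusted p = 0.910, and -0.15 with the offsets). Mgst1 had a log2 fold change of 0.24.

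**Figure D4:**
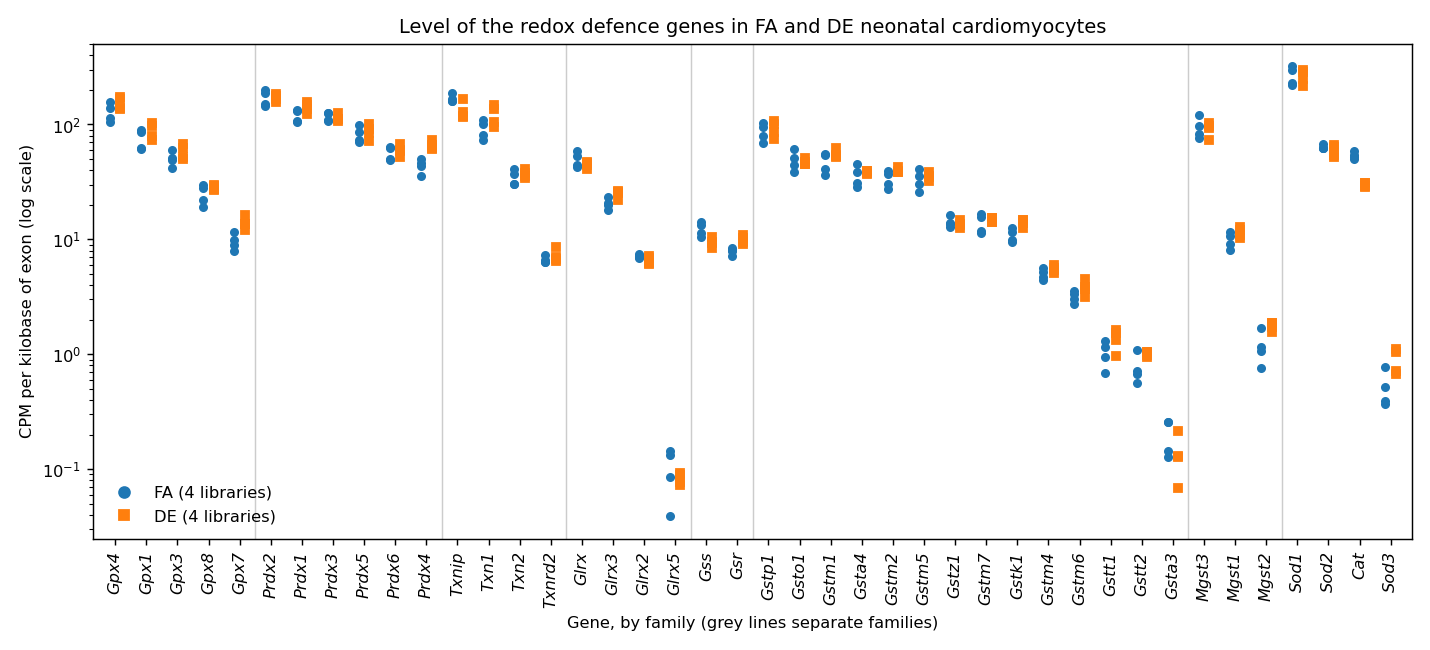
Level of all 42 genes in CPM per kilobase of exon, on a log scale, with 1 point per library (FA blue circles, DE orange squares) and genes ordered by family and by their FA mean. Sod1, Prdx2, Txnip and Gpx4 lead their families, the FA and DE points of Cat are clearly apart, and Gsta3 and Glrx5 are near the floor.

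Promoters were searched for 3 motifs, those of Nrf2, of the aryl hydrocarbon receptor, which binds diesel compounds, and of the PPARs. RefSeq's promoter table (GRCm38.p6, 250 bases before to 50 after the start) held a window for 37 of the 42 genes, and where it held more than 1, as for 9 of them, the first was used. The core of the antioxidant response element, TGACNNNGC on either strand, was in 5 of 37 windows (13.5%), where 12.5% of all 27025 windows held it. The core of the xenobiotic response element, GCGTG, was in 16 of 37 (43.2%) against 32.5% of all windows, and a direct repeat of AGGTCA with 1 base between, the kind that PPAR binds, was in 0 of 37 against 0.044%. Cat, Gpx7 and Prdx4 held none of these letters in their windows, which says nothing of sites elsewhere or of inexact repeats. Only 12 of all 27025 windows held the exact repeat, so its absence from the 37 windows tells little. The 5 matches to the antioxidant core are shown in capitals within 41 bases of the plus strand, since Nrf2 is known to bind this core, at chr1:21240448-21240488 (Gsta3), chr3:107895796-107895836 (Gstm5), chr6:138140455-138140495 (Mgst1), chr4:116685450-116685490 (Prdx1) and chr16:90220690-90220730 (Sod1).
Gsta3: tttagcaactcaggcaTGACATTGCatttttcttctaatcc
Gstm5: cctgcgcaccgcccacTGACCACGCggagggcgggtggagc
Mgst1: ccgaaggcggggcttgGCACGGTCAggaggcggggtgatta
Prdx1: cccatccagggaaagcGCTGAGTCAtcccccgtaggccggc
Sod1: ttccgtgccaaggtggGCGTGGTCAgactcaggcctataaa
In Sod1 and Gstm5 the match overlaps the xenobiotic core. None of the 4 tested genes among these was called, with log2 fold changes of 0.24 for Prdx1 and Mgst1, 0.093 for Gstm5 and -0.019 for Sod1.

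A further 85 genes of the same pathways, from cystine uptake to NADPH supply, were listed, and of the 73 tested 6 were called (8.22%, against 5.8% of all tested genes), 4 higher and 2 lower in DE. Slc7a11, the cystine importer that supplies cysteine for glutathione and a known Nrf2 target, rose from 2.16 ± 0.451 to 3.96 ± 0.295 CPM (log2 fold change 0.89, SE 0.18, adjusted p = 0.0193), with 1.79, 1.74, 2.54 and 2.56 CPM in FA and 3.75, 4.16, 3.67 and 4.26 CPM in DE. Txndc12, a thioredoxin-like protein of the endoplasmic reticulum, rose from 32.5 ± 3.55 to 43.9 ± 4.86 CPM (0.44, SE 0.11, adjusted p = 0.0476). Clic1, a chloride channel protein with a glutathione transferase fold, rose from 96.8 ± 13.3 to 142 ± 22.8 CPM (0.56, SE 0.14, adjusted p = 0.0394). For these 3 genes each DE library was above each FA library. The groups were without overlap for 11 of the 73 genes (15.1%), near the 14.7% of all tested genes. Slc7a11 lost its call without FA replicate 2, FA replicate 3 or DE replicate 3 (0.79 to 0.86, adjusted p = 0.0516 to 0.0793), and within prefix 11 (0.90, adjusted p = 0.0701). Txndc12 and Clic1 lost it without FA replicate 2, 3 or 4 or DE replicate 3, 5 or 7 (0.38 to 0.48, adjusted p = 0.0503 to 0.150, and 0.46 to 0.61, adjusted p = 0.0501 to 0.124), and within prefix 11 (0.29, adjusted p = 0.291, and 0.36, adjusted p = 0.242).

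Of 12 genes that supply NADPH, Me1, cytosolic malic enzyme, fell from 56.8 ± 6.92 to 35.3 ± 2.23 CPM (log2 fold change -0.69, SE 0.11, adjusted p = 0.00650). Mthfd2, a mitochondrial folate enzyme, rose from 15.9 ± 3.07 to 28.3 ± 4.59 CPM (0.83, SE 0.15, adjusted p = 0.0138). Like Cat, Me1 is known as a PPAR target gene, and a part of PPAR in either difference was not tested. Mthfd2 lost its call without FA replicate 2 (0.76, adjusted p = 0.0545) or FA replicate 4 (0.76, adjusted p = 0.0592), and within prefix 11 (0.69, adjusted p = 0.0622). With the 25% difference built into the test, 0 of the 73 genes were called, where 0.762% of all tested genes were.
The rate-limiting enzyme of glutathione synthesis was not called in either subunit, with log2 fold changes of 0.26 (SE 0.11, adjusted p = 0.152) for Gclc and 0.19 (SE 0.10, adjusted p = 0.262) for Gclm. Known Nrf2 targets that reduce thioredoxin and peroxiredoxins were near no difference, with 0.058 (SE 0.094) for Txnrd1 and -0.067 (SE 0.13) for Srxn1. None of the 4 methionine sulphoxide reductases or of the 8 genes of selenoprotein synthesis was called by the quasi-likelihood test, DESeq2, the likelihood ratio test or limma-voom, with 0 and 1 of them at an unadjusted p under 0.05 in the quasi-likelihood test.

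The number of called redox genes changed with the test. DESeq2 called 6 of 40, with Gss, Gsr and Sod3 beside the first 3, where it called 10.9% of all genes, and the likelihood ratio test called 5, with Gss and Sod3 beside the first 3 and a background of 10.7%. With offsets 4 were called, Gss beside the first 3, with a background of 11.3%. Cat alone remained with the 25% difference built into the test (background 0.762%), with the prefix as a term (2.99%) and among the libraries with prefix 11 only (1.75%). Without any 1 library 1 to 4 genes were called, with Cat alone when FA replicate 2, FA replicate 4 or DE replicate 3 was left out. In these 3 fits the calls over all genes also fell, from 868 to 249, 237 and 268.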

How the data were processed

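RNA-seq of NCMs from 4 FA and 4 DE male neonates was analysed, grouped by the labels. The authors enriched poly-A RNA, prepared TruSeq Stranded libraries, aligned reads to mm10 with TopHat and Ensembl transcripts, marked duplicates with Picard without removing them, and recalibrated with GATK. They deposited raw counts per Entrez gene from featureCounts, without normalization. The counting annotation, strand setting and treatment of multiply mapped reads are not given in the sources used here, which bears on paralogs and overlapping genes. Retained duplicates are not independent molecules.

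Symbols and positions came from a RefSeq gene table (GRCm38.p6), with 25275 of 27179 genes matched, and exon lengths from GENCODE M21. Genes were filtered with filterByExpr (10 counts), scaled by TMM and tested with edgeR 4.0.16 (glmQLFit, glmQLFTest) in R 4.3.3, with Benjamini-Hochberg adjustment over all 14966 tested genes. CPM use the same factors, and CPM per kilobase divide by exon length. Code was tested on simulated data. Called redox genes, those at an unadjusted p under 0.05 and the highest per kilobase of each family are given by library. The other redox genes are given by log2 fold change, mean and SD, or range. Of the further pathway genes called, 1 is not reported here. The members and lists were chosen with earlier results of these data known. Alternatives were DESeq2 1.42.0, the likelihood ratio test, limma-voom (limma 3.58.1), the 25% difference built into the test, relative log expression factors, library totals, no filter, a minimum mean of 1 CPM, the prefix as a term, prefix 11 only, offsets for GC content and length (5-df splines), and each library left out.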

Additional observations from a re-analysis of the deposited data

How the results depend on the processing

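The 20 alternatives gave 459 values for 23 named genes (17 of the redox set and 6 further pathway genes). Of these 385 kept direction and side of the threshold, 47 lost the call, 9 gained one and 18 changed sign. The changes of sign were all in genes near no difference. Prdx2 (main value -0.0047) was 0.0060 with limma-voom, 0.067 with library totals and 0.0063 with no filter, and -0.079 to 0.079 without 1 library. Gstp1 (0.097) was -0.11 with the prefix as a term and within prefix 11, -0.095 with offsets, and -0.0030 to 0.19 without 1 library. Mgst3 (-0.034) was 0.039 and Sod1 (-0.019) 0.053 with library totals, and without 1 library they ran from -0.13 to 0.10 and from -0.10 to 0.078. Cat ran from -0.89 to -0.78 over all alternatives, Prdx4 from 0.46 to 0.66 and Gpx7 from 0.37 to 0.63.

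Called redox genes, 3 in the main test, were 6 with DESeq2, 5 with the likelihood ratio test and 1 with the 25% difference built in, with the prefix as a term and within prefix 11, where 10.9%, 10.7%, 0.762%, 2.99% and 1.75% of all tested genes were called, and 1 to 4 without 1 library. Called further pathway genes, 6 in the main test, were 0 of 73 with the 25% difference built in, 2 within prefix 11 and 10 with offsets, where 0.762%, 1.75% and 11.3% of all tested genes were called, and 1 to 7 without 1 library. Without 1 library, calls over all tested genes ran from 237 of 15453 (FA replicate 4 left out) to 1168 of 14733 (DE replicate 1 left out). The cause of these shifts was not tested. An added alternative, chosen after seeing the data, took genes of known length and GC content without offsets. It called 3 redox genes, where 845 of all 13851 tested genes were called. No paired analysis was made, since the labels name no pairs of FA and DE libraries. No FA library carries prefix 12. At 13 to 42 counts per library the value of Mgst2 is uncertain (SE 0.26), and the part of depth in this was not tested.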
